A study of Mus musculus with 6 samples.

Results

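Axon guidance ligands and their receptors were followed in pools of mouse dorsal root ganglion neurons. The members were chosen by symbol, as the semaphorins of classes 3 to 7, plexins, neuropilins, Eph receptors, ephrins, Slit and Robo proteins, netrins 1 and 4, Unc5 receptors and Dcc. The pattern found 66 genes, 33 ligands and 33 receptors, among the 18193 genes named by a probe set of the array. The study measured total RNA of 6 pools with Affymetrix arrays, 1 pool for each of 3 title codes and 2 size classes of neuron (big, and medium to small in diameter). A pool coded L3-B was made of 50 control neurons. Under the codes L3-S and L6-R a pool was made of 20 neurons marked by the axonal tracer DiI, which had reached them by retrograde transport. All pools were dorsal root ganglion neurons. Strain, age, the number of animals behind a pool, the tissue that received DiI and the meaning of the codes are not stated in what was used here. The 2 pools of a code differ in size class and are not replicates. The p-values measure differences against the departure of these pools from an additive fit of code and size class, with variance information shared between genes. That departure may be technical, and the spread between animals cannot be read from it.

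Guidance ligands steer growing axons and, in adult sensory neurons, remain as signals for branching, synapse formation and regrowth. Class 3 semaphorins are secreted and mostly act through a neuropilin that binds the ligand and a class A plexin that carries the signal. Semaphorin 3E instead binds plexin D1, and semaphorin 7A, which is anchored to the membrane, binds plexin C1. Ephrins and Eph receptors signal between touching cells, Slits act through Robo receptors, and netrins act through Dcc and the Unc5 receptors.

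Signals are linear units of the deposited table, and a signal under 32 was taken as near background. Differences are in log2(signal + 32), with the standard error (SE) of 1 limma fit of code and size class to all 6 arrays. The added 32 shrinks differences that involve dim signals. Signals of different genes come from different probes and are not compared. Each pair of signals below is given for the big pool first and the medium to small pool second. Genes were tested if their mean log2 value over all arrays lay in the upper 50%. This kept 30 of the 66 members, 17 ligands and 13 receptors, and a member dim in 1 code could be kept through the other codes. A member was called at an adjusted p under 0.05, adjusted over all 9097 genes tested. In RNA from pools, fewer neurons of a type and less RNA in each neuron cannot be told apart.

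All 12 markers of sensory neurons (Tubb3, Uchl1, Prph and others) were over 32 in every array. Sums of marker signals differed between codes. Markers of large myelinated-fibre neurons summed to 22726 to 27268 for L3-B, 21608 to 23899 for L3-S and 14031 to 16532 for L6-R. Nociceptor markers summed to 7779 to 8582, 8051 to 8678 and 12257 to 16848 in the same order, and markers of the response to axon injury to 3641 to 4842, 3272 to 4021 and 9216 to 9387. In L6-R against L3-S, 4 of 8 tested nociceptor and 6 of 9 tested injury markers were higher at an adjusted p under 0.05. By the same threshold 2 of 8 tested large-fibre markers were lower. Of all genes tested 1.26% were higher and 1.91% lower by that threshold. By sign alone, 7 of 8 nociceptor and 9 of 9 injury markers were higher, and 7 of 8 large-fibre markers were lower. Markers of satellite glia and Schwann cells (13 genes) summed to 12258 to 13709 for L3-B, 14504 to 18229 for L3-S and 16844 to 22802 for L6-R, with Mag, a myelin protein, under 32 in all arrays. Markers of connective tissue and vessels (12 genes) summed to 367 to 542, 1519 to 1579 and 1128 to 2019. Of 9 blood and immune markers, 6 were under 32 in all arrays. The Actb 3' to 5' signal ratio ran from 3.73 to 13.9. The part of these markers and of this ratio in the results below was not tested beyond the fit with the ratio as a covariate.

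Promoters are shown for 5 of the called members, which stand for the patterns described below. Nrp1 and Nrp2 were low in L6-R, Plxnc1 and Unc5b were low in L3-B, and Slit2 was high in L3-S. The sequences are RefSeq's on build GRCm38.p6, from 250 bases before to 50 after the start of the gene, 5′ to 3′ along the gene. Capitals mark the GC box GGGCGG and the TATA box TATAAA, searched on both strands, with overlapping matches counted apart.
Nrp1, chr8:128358823-128359122, strand +: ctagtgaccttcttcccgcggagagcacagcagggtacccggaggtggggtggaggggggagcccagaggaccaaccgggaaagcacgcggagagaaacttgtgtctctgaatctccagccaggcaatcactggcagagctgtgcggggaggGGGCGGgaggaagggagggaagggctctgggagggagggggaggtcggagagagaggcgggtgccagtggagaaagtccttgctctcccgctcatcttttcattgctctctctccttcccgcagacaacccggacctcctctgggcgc
Nrp2, chr1:62703067-62703366, strand +: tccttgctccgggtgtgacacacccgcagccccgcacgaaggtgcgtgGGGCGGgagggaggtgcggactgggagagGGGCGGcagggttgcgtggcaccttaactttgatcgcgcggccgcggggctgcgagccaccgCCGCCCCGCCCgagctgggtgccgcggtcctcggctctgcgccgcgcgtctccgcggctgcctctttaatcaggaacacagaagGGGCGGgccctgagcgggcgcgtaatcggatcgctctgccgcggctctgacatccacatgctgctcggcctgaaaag
Plxnc1, chr10:94944796-94945095, strand -: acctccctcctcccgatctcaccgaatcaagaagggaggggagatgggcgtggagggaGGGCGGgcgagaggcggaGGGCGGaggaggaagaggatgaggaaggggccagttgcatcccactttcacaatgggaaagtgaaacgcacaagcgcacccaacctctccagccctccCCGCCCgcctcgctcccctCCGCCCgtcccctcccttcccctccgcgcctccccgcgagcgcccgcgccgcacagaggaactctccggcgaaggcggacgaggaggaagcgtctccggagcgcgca
Unc5b, chr10:60831532-60831831, strand -: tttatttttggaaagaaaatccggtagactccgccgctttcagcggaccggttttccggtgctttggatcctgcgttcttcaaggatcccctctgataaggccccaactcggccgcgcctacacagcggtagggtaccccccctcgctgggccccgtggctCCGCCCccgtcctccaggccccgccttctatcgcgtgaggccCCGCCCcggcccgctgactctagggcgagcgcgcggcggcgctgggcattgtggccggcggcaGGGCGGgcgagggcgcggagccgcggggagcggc
Slit2, chr5:47982905-47983204, strand +: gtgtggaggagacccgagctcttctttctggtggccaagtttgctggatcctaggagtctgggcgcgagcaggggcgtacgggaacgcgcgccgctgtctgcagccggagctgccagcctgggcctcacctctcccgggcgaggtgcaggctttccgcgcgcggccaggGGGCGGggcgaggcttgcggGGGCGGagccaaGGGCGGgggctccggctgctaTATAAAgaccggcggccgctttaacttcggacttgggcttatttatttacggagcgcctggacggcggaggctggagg
All 5 are rich in CpG, with 14 to 37 CpG dinucleotides against a median of 7 over all 32851 promoters of the table. Nrp1 had 1 GC box, Nrp2 had 5, Plxnc1 had 4, and Unc5b and Slit2 had 3 each. Of the 13 called members whose promoter was looked at, 11 held a GC box, which 35.7% of all promoters hold. Called members come from the brighter genes, and the shares among tested genes and among members not called are not given here. Only Slit2 among them held a TATA box (13.6% of all promoters), and Epha4, Sema3d and Sema4f held a CCAAT box (letters CCAAT, 37.4%). An AP-1 site (TGANTCA, 7.81%) or a CRE (TGACGTCA, 1.79%) was found in 0 of the 13 windows. These matches describe letters and not binding.

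Both neuropilins, the ligand-binding receptors of class 3 semaphorins, were low in L6-R neurons. L6-R was set against L3-S, the codes that shared DiI labelling and pool size. Of the 30 tested members 7 were called, 2 higher and 5 lower in L6-R, where 3.18% of all genes tested were called, 1.26% higher and 1.91% lower. The median difference of the members was -0.08, and that of all genes tested was -0.01. The lower members were Nrp1, Nrp2, Sema3e, Sema7a and Slit2, and the higher ones were Sema6a and Unc5b.

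Nrp1 gave signals of 1091 and 1274 for L3-B, 1053 and 916 for L3-S, then 251 and 301 for L6-R. Both L6-R arrays lay below all others, and on this probe set the L3-S arrays lay a little below the L3-B arrays. Another Nrp1 probe set had L3-S (865 and 1036) above L3-B (661 and 755), with L6-R again lowest (180 and 241). A further one stood at -0.06 in L3-S against L3-B. Nrp1 fell by 1.72 ± 0.23 log2 (SE, n = 2 arrays per code, limma adjusted p = 0.00749) in L6-R against L3-S, 3.31-fold by the point estimate. Nrp2 gave 840.1 and 655 for L3-B, 404 and 506 for L3-S, then 87.6 and 123 for L6-R. The codes did not overlap in Nrp2, with L3-S between the others and L6-R lowest. Nrp2 fell by 1.83 ± 0.26 (adjusted p = 0.00826) against L3-S, while its difference between L3-S and L3-B, -0.68 ± 0.26, did not pass (adjusted p = 0.380). Both neuropilin calls held with each array left out in turn. With no filter on dim genes 3 of the 7 calls were left (Nrp1, Nrp2 and Slit2), and with the mean of all probe sets of each gene 2 were left (Nrp1 and Nrp2).

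Of the 6 tested plexins, which carry the signal inside the cell, 0 were called in L6-R against L3-S by limma. At an unadjusted p under 0.05 stood Plxna2, Plxna4, Plxnc1 and Plxnd1, all higher in L6-R, beside 1422 of all 9097 genes tested. With the Actb ratio as covariate these plexins passed, at limma adjusted p from 0.0225 (Plxnc1) to 0.0424 (Plxnd1). Epha5, Sema3d, Sema3f and Sema5a were gained there too. The fit with the covariate left fewer residual degrees of freedom, and the share of all genes called in it is not given here. Plxna2, a class A plexin, gave 1606 and 1253 for L3-B, 1034 and 1351 for L3-S, then 1991 and 1964 for L6-R. Its L6-R arrays were the highest, and the difference of 0.73 ± 0.25 from L3-S did not pass (adjusted p = 0.191). The other Plxna2 probe sets stood at 1.04, 1.22 and 0.66. The other tested class A plexins stood at -0.21 (Plxna1), -0.47 (Plxna3) and 0.71 (Plxna4) in L6-R against L3-S. In the fit to all 6 arrays without the covariate, none of these class A plexins passed in any comparison. Plxnb1, Plxnb2 and Plxnb3 were too dim to be tested, at 4.93 to 117.

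Among the class 3 semaphorins, Sema3e, the ligand of plexin D1, was lower in L6-R. Sema3e gave 462 and 708 for L3-B, 598 and 339 for L3-S, then 65.8 and 80.2 for L6-R. L3-B and L3-S overlapped, and the L6-R arrays lay well below both. Sema3e fell by 2.21 ± 0.32 (adjusted p = 0.0101) against L3-S. Sema3f, a ligand that prefers neuropilin 2, gave 209 and 468 for L3-B, 376 and 347 for L3-S, then 138 and 222 for L6-R. This probe set, of the _x_at design, may also bind other transcripts. The Sema3f difference of -0.92 ± 0.30 from L3-S did not pass (adjusted p = 0.160). Sema3c stood at 0.60 and Sema3d at -0.77 in the same comparison, and neither passed. Sema3a, Sema3b and Sema3g were not tested, with signals from 5.86 to 126.

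Sema7a, the membrane-anchored ligand of plexin C1, was also lower in L6-R. Sema7a gave 424 and 398 for L3-B, 318 and 693 for L3-S, then 93.5 and 147 for L6-R. The L6-R arrays lay below the other 4, which overlapped. Sema7a fell by 1.75 ± 0.29 (adjusted p = 0.0177) against L3-S. Sema6a, a transmembrane ligand of class A plexins, gave 66.7 and 41.7 for L3-B, 61.6 and 24.5 for L3-S, then 151 and 132 for L6-R. The L6-R arrays were the highest, and Sema6a rose by 1.25 ± 0.24 (adjusted p = 0.0298). This call rests on 1 probe set, since another Sema6a probe set over 32 stood at 0.02. Omitting the medium to small array of L3-S ended it (1.04, adjusted p = 0.130), as did omitting the big L6-R array (1.46, adjusted p = 0.0801) or the medium to small L6-R array (1.05, adjusted p = 0.318).

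Slit2, a secreted ligand of Robo receptors, was higher in L3-S than in either other code. Slit2 gave 119.6 and 130.4 for L3-B, 538 and 712 for L3-S, then 132 and 189.9 for L6-R. Both L3-S arrays stood above the other 4, and L3-B and L6-R were close. Slit2 fell by 1.77 ± 0.23 (adjusted p = 0.00630) in L6-R against L3-S and rose by 2.05 ± 0.23 (adjusted p = 0.00754) in L3-S against L3-B, while L6-R and L3-B differed by 0.28 ± 0.23 (adjusted p = 0.528). Of the other Slit and Robo genes, Slit1 gave 282 and 431 for L3-B, 233 and 323 for L3-S, then 392 and 374 for L6-R. The L3-B arrays overlapped both other codes. Robo1, a Slit receptor, stood at -0.31 in L6-R against L3-S, and neither gene passed in any comparison. Slit3, Robo2, Robo3 and Robo4 were under 32 in all arrays. Rgs5, a marker of pericytes, gave 88.7 and 40.1 for L3-B, 824 and 977 for L3-S, then 179 and 419.5 for L6-R. It too was highest in L3-S (3.32 over L3-B, adjusted p = 0.00938), and its part in the Slit2 result was not tested.

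**Figure D1:**
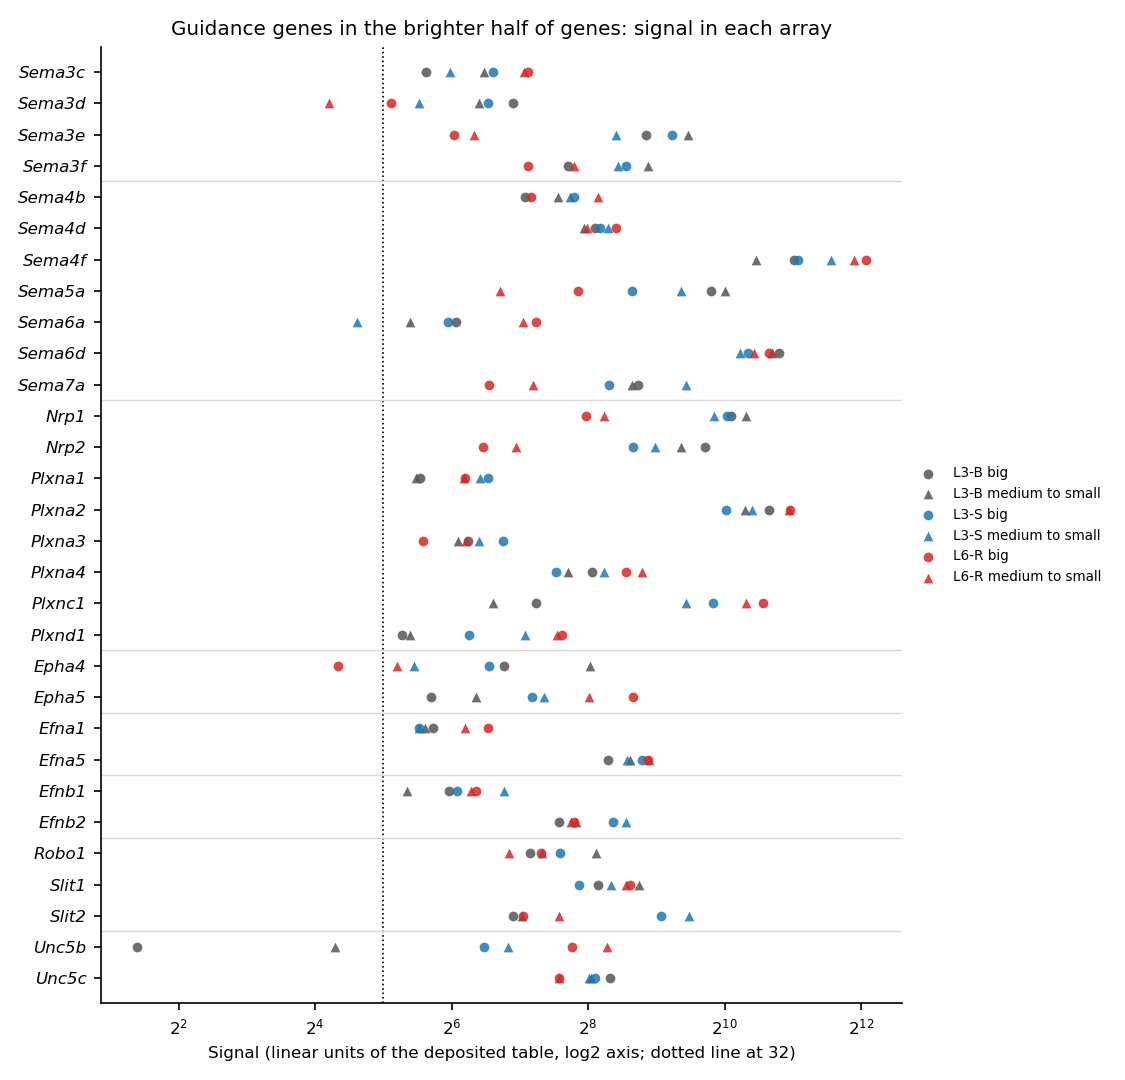
Signal of the 30 tested guidance genes in each of the 6 arrays, on a log2 axis, with 1 row per gene and families separated by lines (circles, big; triangles, medium to small; grey, L3-B; blue, L3-S; red, L6-R). The L6-R arrays lie to the left of all others for Nrp1, Nrp2, Sema3e and Sema7a, and the L3-B arrays do so for Plxnc1 and Unc5b.

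Plxnc1 and the netrin receptor Unc5b, like Slit2, rose from L3-B to L3-S. In this comparison 3 of 30 members were called, all higher in L3-S, where 1.02% of all genes tested were called, 0.923% higher and 0.0989% lower. The members' median was 0.17 and that of all genes was 0.03. L3-B differs from the other codes in DiI and in the number of neurons (50 against 20), and these cannot be told apart. The 3 comparisons between codes share arrays, so their values are given side by side and do not support one another. Of 11 tested glial markers 1 was called higher in L3-S, namely Apoe (2.14, adjusted p = 0.00938). In L6-R against L3-B 5 were called higher, where 4.66% of all genes tested were.

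Plxnc1, the receptor of semaphorin 7A, gave 149.9 and 97.7 for L3-B, 908 and 692 for L3-S, then 1518 and 1268 for L6-R. The codes did not overlap, with L3-B lowest and L6-R highest. Plxnc1 rose by 2.42 ± 0.22 (n = 2 arrays per code, limma adjusted p = 0.00283) in L3-S and by 3.21 ± 0.22 (adjusted p = 0.000219) in L6-R, 5.37-fold and 9.24-fold over L3-B by the point estimates. Between L6-R and L3-S the difference of 0.78 ± 0.22 did not pass (adjusted p = 0.112). Sema7a, its ligand, was lowest in L6-R, where Plxnc1 was highest.

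Unc5b, a receptor that mediates repulsion from netrin 1, gave 2.63 and 19.5 for L3-B, 89.1 and 114 for L3-S, then 217 and 309 for L6-R. Both L3-B arrays were near background and the codes did not overlap. Unc5b rose by 1.65 ± 0.22 (adjusted p = 0.0164) from L3-B to L3-S and by 2.79 ± 0.22 (adjusted p = 0.000321) from L3-B to L6-R. With L3-B near background these sizes depend on the added constant, and they ran from 0.72 to 3.56 and from 1.48 to 4.91 over the alternatives. The call from L3-B to L3-S was lost with 1 or with a constant larger than 32 added, and with no filter. Its further rise of 1.13 ± 0.22 from L3-S to L6-R (adjusted p = 0.0341) lost the call when any 1 of those 4 arrays was left out, with values of 1.26 and 1.01 without the L3-S arrays (adjusted p = 0.0542 and adjusted p = 0.138) and 1.15 and 1.12 without the L6-R arrays (adjusted p = 0.237 and adjusted p = 0.268). Unc5c, a related receptor, gave 321 and 265 for L3-B, 275 and 259 for L3-S, then 190.3 and 189.9 for L6-R. Its L6-R arrays were the lowest, but Unc5c did not pass (-0.43, adjusted p = 0.400 against L3-S). Of the remaining netrin system, Ntn1 was under 32 in all arrays, Dcc was over 32 in 1 array, and Ntn4, an untested member over 32 in all 6 arrays, ran from 38.8 to 67.9.

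L6-R against L3-B held the most calls. Of 30 members 13 were called, 6 higher and 7 lower, where 7.51% of all genes tested were called, 4.66% higher and 2.85% lower. The members' median was 0.22 and that of all genes was 0.02. Receptors made up 4 of the 6 higher members (Plxnc1, Plxnd1, Epha5 and Unc5b) and 3 of the 7 lower ones (Nrp1, Nrp2 and Epha4). The ligands Sema4f and Sema6a were higher, and Sema3d, Sema3e, Sema5a and Sema7a were lower. DiI, the number of neurons and the glial markers described above all differed along with these codes. Of the neuronal markers tested, 5 of 8 for large fibres were called lower and 1 higher. For nociceptors 5 of 8 were called higher, and for axon injury 6 of 9. Of the connective tissue and vessel markers 3 of 4 tested were called higher (Dcn, Col1a2 and Rgs5), although the endothelial marker Pecam1 stayed under 32 in all arrays.

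Nrp1 fell by 1.98 ± 0.23 (limma adjusted p = 0.00177), Nrp2 by 2.51 ± 0.26 (adjusted p = 0.000909) and Sema3e by 2.53 ± 0.32 (adjusted p = 0.00277) in L6-R against L3-B. These 3 members, with Sema7a (-1.56 ± 0.29, adjusted p = 0.0147), Sema6a and Unc5b, made up the 6 called in L6-R against both other codes. Plxnd1, the receptor of semaphorin 3E, gave 38.6 and 42.02 for L3-B, 76.2 and 135 for L3-S, then 197 and 186 for L6-R. The codes did not overlap, and L6-R was highest, whereas the L6-R arrays of Sema3e were the lowest. Plxnd1 rose by 1.63 ± 0.25 (adjusted p = 0.00614).

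Sema5a, a transmembrane semaphorin with thrombospondin repeats, gave 891 and 1031 for L3-B, 398 and 660.4 for L3-S, then 229.8 and 105 for L6-R. The codes did not overlap, with L6-R lowest. Sema5a fell by 2.39 ± 0.36 (adjusted p = 0.00551) against L3-B, and its difference of -1.53 ± 0.36 from L3-S did not pass (adjusted p = 0.0668). That outcome depended on the settings. At the same size it passed with array weights (limma adjusted p = 0.0287) and without the size class term (adjusted p = 0.0389), but not in every alternative. Sema3d gave 119.7 and 84.4 for L3-B, 92.2 and 46.1 for L3-S, then 34.6 and 18.4 for L6-R. L3-B and L3-S overlapped and L6-R was lowest, and Sema3d fell by 1.20 ± 0.22 (adjusted p = 0.0147). Sema4f, a transmembrane class 4 semaphorin, gave 2073 and 1409 for L3-B, 2154 and 3025 for L3-S, then 4304 and 3809.6 for L6-R. Its codes did not overlap, and Sema4f rose by 1.23 ± 0.28 (adjusted p = 0.0356). Sema6d, a ligand of plexin A1, gave 1779 and 1649 for L3-B, 1297 and 1193 for L3-S, then 1606 and 1382 for L6-R. Its codes did not overlap either, with L3-B highest and L3-S lowest, but the difference of -0.20 between L6-R and L3-B did not pass (adjusted p = 0.662). Sema4b ran from 135 to 284 and Sema4d from 246 to 340.4 over the 6 arrays, and neither was called.

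**Figure D2:**
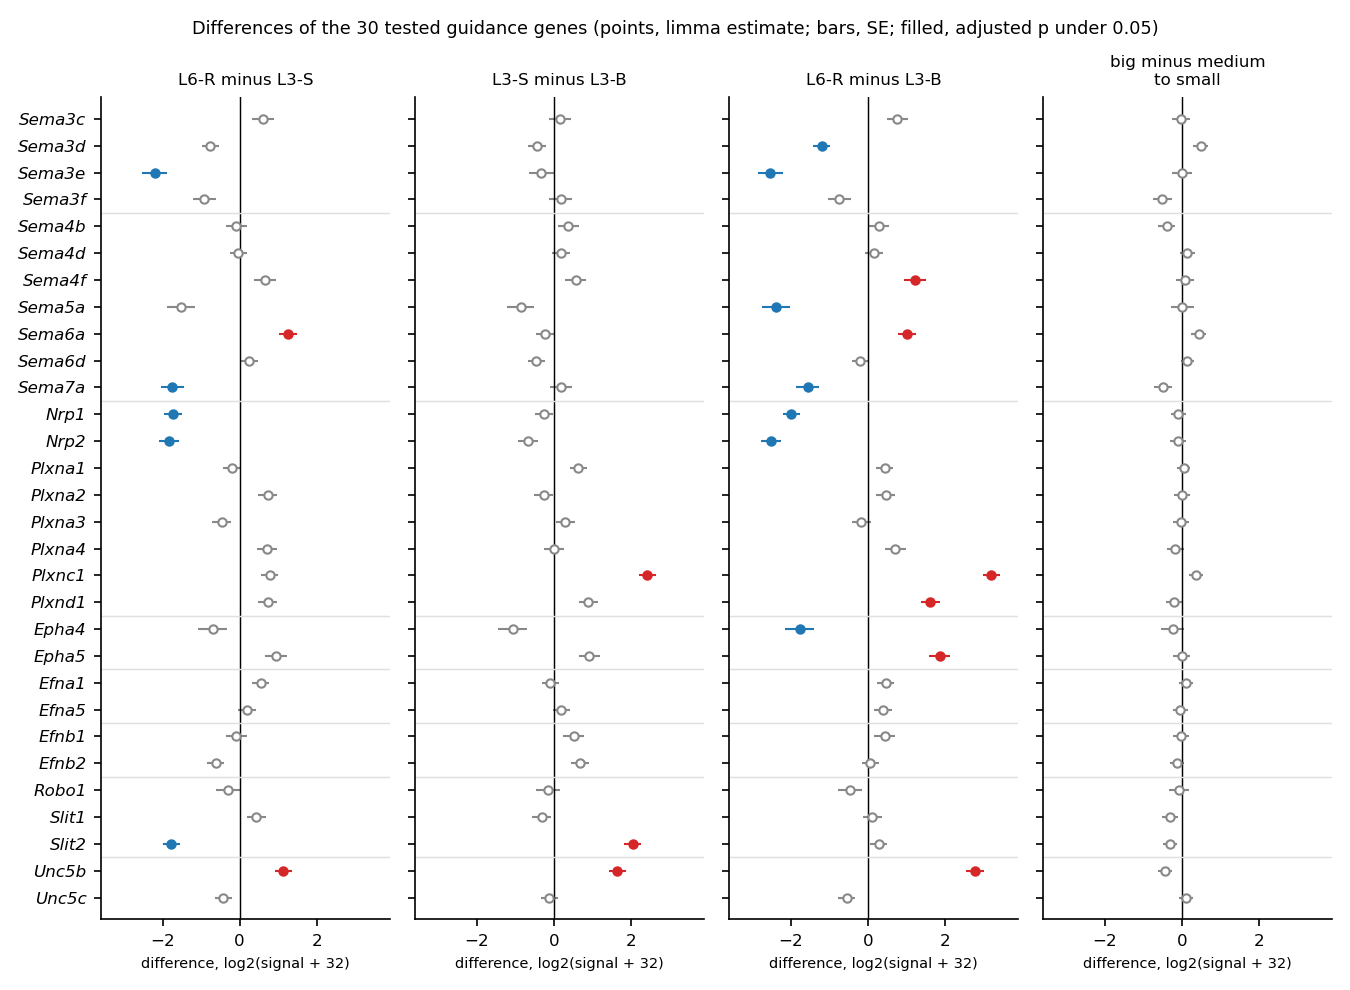
Differences of the 30 tested guidance genes in log2(signal + 32) for the 3 comparisons between codes and for size class (points, limma estimate; bars, SE; filled red or blue, called higher or lower; open grey, not called). Calls number 7, 3, 13 and 0 from left to right, with red or blue points for called members only.

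The Eph family was mostly dim, and its called members, both EphA receptors, moved in opposite directions. Epha4, a receptor of A and B ephrins, gave 109 and 261 for L3-B, 93.1 and 43.7 for L3-S, then 20.3 and 36.6 for L6-R. The codes did not overlap, and Epha4 fell by 1.76 ± 0.38 in L6-R against L3-B (adjusted p = 0.0272). Epha5, a receptor of A ephrins, gave 51.6 and 82.1 for L3-B, 144 and 164 for L3-S, then 403 and 259 for L6-R. Again the codes did not overlap, in the reverse order, and Epha5 rose by 1.87 ± 0.28 (adjusted p = 0.00575). The other 7 EphA members and the 4 EphB members were not tested, and Ephb2 was not analysed here. Of these, Ephb1 gave 17.99 and 41.6 for L3-B, 57.9 and 127.6 for L3-S, then 46.8 and 43.9 for L6-R, lowest in L3-B and highest in L3-S. Ephb6, a receptor without kinase activity, ran from 27.2 to 82.2.

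Of the 4 tested ephrins, the ligands of these receptors, 0 were called by limma in any comparison. At an unadjusted p under 0.05 stood Efna1 and Efnb2 in L6-R against L3-S, and Efnb2 in L3-S against L3-B. Of all 9097 genes tested, 1422 and 924 did so in these comparisons. Efna5 gave 314 and 392 for L3-B, 440.4 and 379 for L3-S, then 469 and 473 for L6-R. Efna1 gave 53.0 and 48.9 for L3-B, 46.0 and 46.1 for L3-S, then 92.2 and 73.2 for L6-R. Both were highest in the L6-R arrays, by 0.39 ± 0.23 and 0.46 ± 0.22 over L3-B (adjusted p = 0.381 and adjusted p = 0.272). Efnb2, a transmembrane ephrin, gave 189.8 and 227 for L3-B, 331 and 376 for L3-S, then 222 and 214 for L6-R. It was highest in both L3-S arrays, as Slit2 was, but its difference of 0.68 ± 0.22 from L3-B did not pass (adjusted p = 0.266). Efnb1 gave 62.3 and 40.5 for L3-B, 67.4 and 109 for L3-S, then 81.8 and 77.9 for L6-R, with L3-B below the other codes, which overlapped.

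Several calls in L6-R against L3-B depended on 1 array. Without the L6-R big array the count was 7, and the calls of Plxnd1 (1.42, adjusted p = 0.0558), Sema7a (-1.55, adjusted p = 0.0502), Sema3d (-1.14, adjusted p = 0.160), Sema4f (1.16, adjusted p = 0.198), Epha4 (-1.65, adjusted p = 0.0667) and Sema6a (1.23, adjusted p = 0.111) were lost. With the medium to small array of L6-R omitted, Sema3d (-1.26, adjusted p = 0.0951), Sema4f (1.30, adjusted p = 0.115) and Sema6a (0.82, adjusted p = 0.380) lost theirs. Without the L3-B medium to small array Epha4 (-1.15, adjusted p = 0.0906), Sema4f (0.88, adjusted p = 0.121) and Sema6a (1.04, adjusted p = 0.0685) did, and Sema6a also did without the L3-B big array (1.01, adjusted p = 0.0682). Nrp1, Nrp2, Sema3e, Sema5a, Plxnc1, Epha5 and Unc5b kept their calls against L3-B with each array left out.

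Other probe sets of the called genes gave a second reading on the same arrays. In L6-R against L3-S the other Nrp1 probe sets over 32 in mean signal stood at -2.03 and -1.62, and those of Nrp2 at -1.89 and -0.79. In L6-R against L3-B the 3 other such probe sets of Plxnc1 stood between 1.60 and 2.81, and the 3 of Epha5 between 0.43 and 1.27. Those of Epha4 stood at -2.001 and -1.591, and 1 each of Sema5a, Sema3e, Sema4f and Unc5b at -2.45, -1.43, 1.04 and 1.29. In L3-S against L3-B those of Plxnc1 stood between 0.65 and 1.72, and the other Unc5b probe set stood at 0.93. In L6-R against L3-S the latter stood at 0.36. These all had the sign of the brightest probe set, and many were smaller in size. Sema6a against L3-B was the exception, at -0.23. Sema7a, Slit2, Sema3d and Plxnd1 had no other probe set over 32 in mean signal. The brightest Sema4f probe set is also of the _x_at design.

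**Figure D3:**
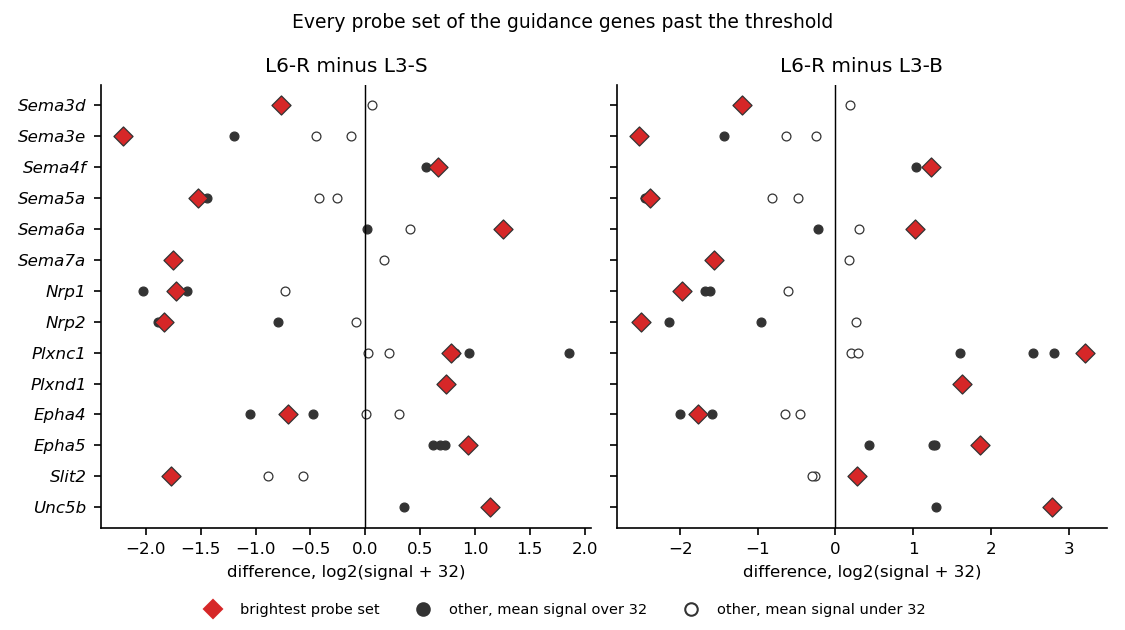
Difference in log2(signal + 32) of every probe set of the 14 called guidance genes, for L6-R minus L3-S (left) and L6-R minus L3-B (right); red diamonds are the brightest probe sets, filled circles others with a mean signal over 32, open circles others under 32. Filled circles lie on the side of the diamond except for Sema6a against L3-B.

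Between size classes, 0 of the 30 members were called in big against medium to small neurons, as were 0 (0%) of all genes tested (limma). At an unadjusted p under 0.05 there were 2 members and 320 genes. The larger differences were those of Sema3d (0.48 ± 0.18), Sema6a (0.44 ± 0.19) and Plxnc1 (0.37 ± 0.18) towards big neurons, and of Sema3f (-0.51 ± 0.24), Sema7a (-0.49 ± 0.24) and Unc5b (-0.43 ± 0.18) towards medium to small ones (adjusted p = 0.998 for each). Another Sema3f probe set over 32 in mean signal stood at 0.04. Sema7a was higher in medium to small neurons of L3-S (693 against 318) and L6-R (147 against 93.5), but not of L3-B (398 against 424). For 0 of the 30 members did a difference between codes reach 0.5 log2 in opposite directions in the 2 size classes, as it did for 0.824% (L6-R against L3-S), 3.96% (L3-S against L3-B) and 1.75% (L6-R against L3-B) of all genes tested. At such low shares a count of 0 is near the background.

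Of the 36 untested members, 12 were under 32 in all 6 arrays, 23 were over 32 in 1 to 5 arrays, and Ntn4 alone was over 32 in all 6. Dcc, Sema3a, Sema6b and Unc5d were over 32 in arrays of L3-S only, and Efnb3 in an array of L3-B only. Dcc, Sema3a and Unc5d passed 32 narrowly, in 1 L3-S array each (32.3, 35.4 and 35.7), and Unc5d reached 31.3 in L6-R. Sema6b gave 44.2 and 37.0 for L3-S. The L3-S arrays had the fewest probe sets under 32 (55.3% and 56.8%). The share of all genes with such a pattern is not given here. Sema6c, a transmembrane semaphorin just under the filter, gave 137 and 107 for L3-B, 51.0 and 77.5 for L3-S, then 7.46 and 11.3 for L6-R. The codes did not overlap, and with no filter on dim genes Sema6c passed as lower in L6-R against L3-B (adjusted p = 0.0152). Its L6-R signals were under 32, so the size of the difference depends on the added constant, at -1.89 with 32 and -0.86 with the larger constant. Sema3b and Plxnb3 had their highest signals, 126 and 117, in the L6-R medium to small array, which also had the highest sum of glial markers. The part of these markers in both values was not tested. Sema6c, Sema3b and Plxnb3 were picked out after their values were seen.

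**Figure D4:**
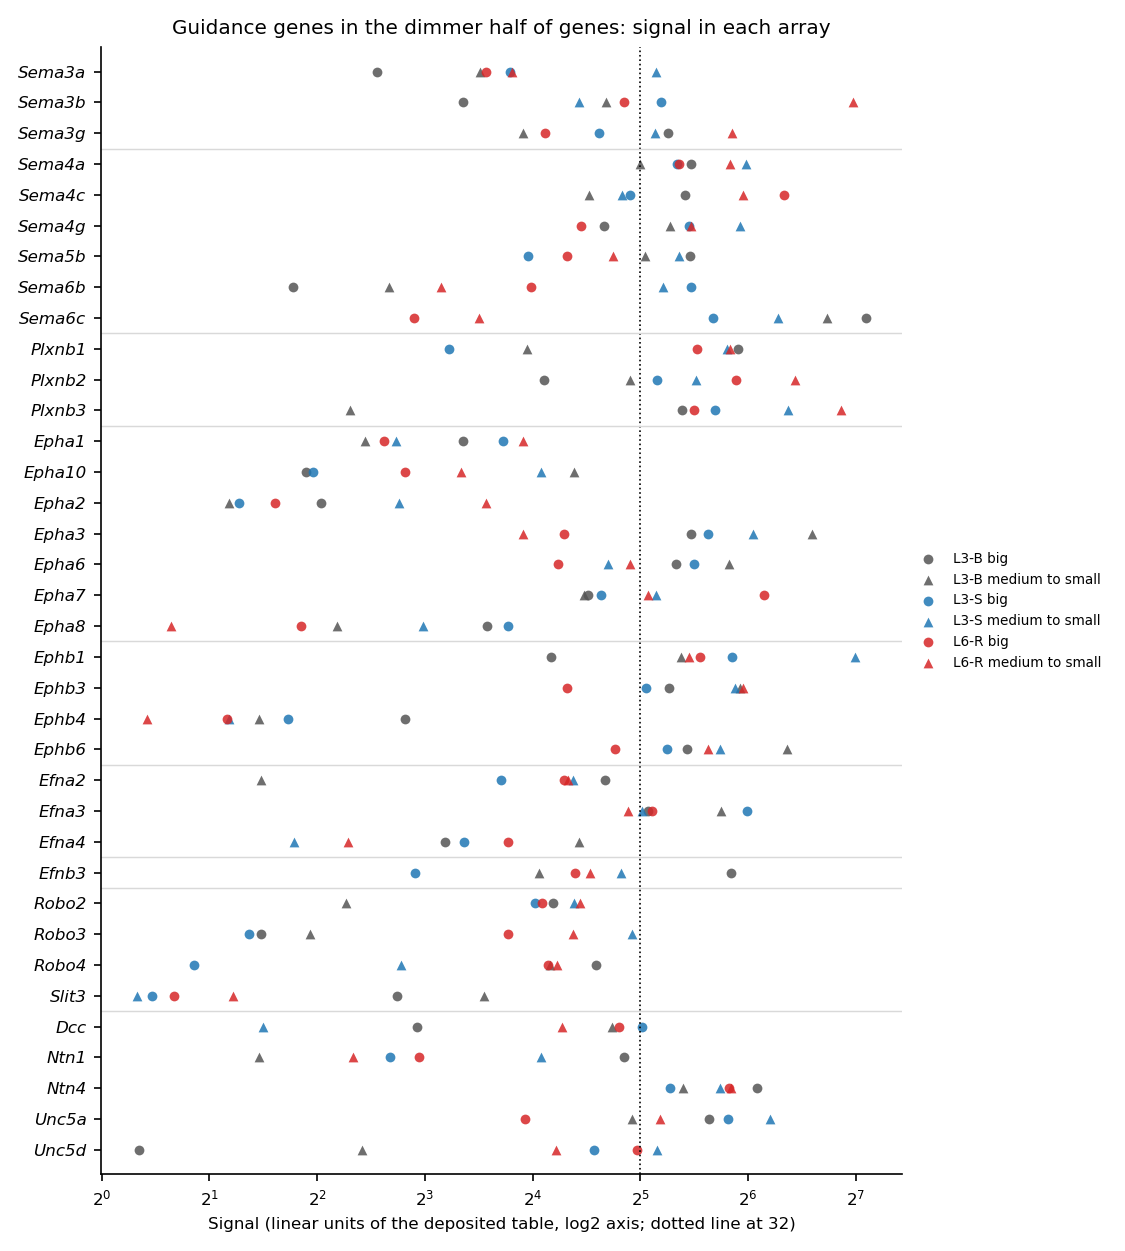
Signal of the 36 untested guidance genes in each of the 6 arrays on a log2 axis, symbols as for the tested genes, with a dotted line at 32. Most points lie under the line, and Sema6c separates the L6-R arrays (7.46 and 11.3) from the L3-B arrays (137 and 107).

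Effector genes that act downstream of guidance receptors moved in both directions. Of 44 tested effectors 3 were called in L6-R against L3-S, 1 higher and 2 lower, 1 higher in L3-S against L3-B, and 3 higher and 3 lower in L6-R against L3-B. These are 6.82%, 2.27% and 13.6% of the tested effectors, beside 3.18%, 1.02% and 7.51% of all genes tested. Their medians were -0.07, -0.07 and -0.18. Vav3, a signalling protein used by Eph receptors, gave 73.9 and 66.7 for L3-B, 278 and 394 for L3-S, then 33.8 and 34.6 for L6-R. It was highest in L3-S, as Slit2 was, and fell by 2.46 ± 0.24 in L6-R against L3-S (adjusted p = 0.00171). Mical1, an oxidase that plexins engage to disassemble actin, gave 177 and 46.4 for L3-B, 133 and 100.4 for L3-S, then 887 and 873 for L6-R. Both L6-R arrays stood above the rest, and Mical1 rose by 2.63 ± 0.33 (adjusted p = 0.00630). Chn2, a Rac GTPase-activating protein, gave 848 and 1479.9 for L3-B, 867 and 628 for L3-S, then 19.9 and 54.8 for L6-R. Both L6-R arrays were far below the others, and Chn2 fell by 3.52 ± 0.32 (adjusted p = 0.00152) in the same comparison. The Vav3 (_s_at) and Mical1 (_x_at) probe sets may bind further transcripts. Against L3-B, L6-R was also higher in Rras (1.57 ± 0.22, adjusted p = 0.00415), a GTPase that plexins switch off, and in the exchange factor Kalrn (1.20), and lower in the kinase Pak3 (-1.23) and in Rasa1 (-0.95).

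Of 34 tested genes for other guidance cues and co-receptors, 0 were called in L6-R against L3-S and 0 in L3-S against L3-B by limma, and 4 higher and 3 lower in L6-R against L3-B. The last are 20.6% of the list, beside 7.51% of all genes tested, and both counts of 0 stand beside 3.18% and 1.02%. At an unadjusted p under 0.05 there were 10, 7 and 17 of the 34 in these comparisons. Of all 9097 genes tested there were 1422, 924 and 1969. Their medians were 0.05, 0.01 and 0.08. Chl1, an adhesion molecule that pairs with neuropilin 1, gave 3011 and 1964 for L3-B, 1004 and 1057 for L3-S, then 376 and 511 for L6-R. The codes did not overlap, and Chl1 fell by 2.39 ± 0.28 in L6-R against L3-B (adjusted p = 0.00177). Ncam1, a neural adhesion molecule, gave 118 and 69.3 for L3-B, 236 and 490.3 for L3-S, then 1112 and 900.2 for L6-R, and rose by 3.07 ± 0.35 (adjusted p = 0.00162). Gpc1, a heparan sulfate proteoglycan that binds Slits (1.38), Adgrl3 (1.40) and Flrt3 (1.33), partners in cell contact, also rose, and the receptor phosphatase Ptprd (-1.13) and the myelin-associated inhibitor Omg (-1.24) fell.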

How the data were processed

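Total RNA of 6 neuron pools was measured on Affymetrix arrays. The deposited table gives the authors' linear signal intensity for 45037 probe sets and 64 control probe sets. Every array's mean, after trimming 2% at each end, was 150, so the values were taken as already scaled. The summary method is not given in the sources used here. Of an array's probe sets 55.3% to 59.5% were under 32. Probe sets with 1 symbol in the platform table numbered 34945, and 932 had several and 9160 none. The brightest by mean log2(signal + 32) stood for each of 18193 genes. R 4.3.3 with limma 3.58.1 fitted code and size class additively (2 residual and 6.46 prior degrees of freedom, two-sided), with Benjamini-Hochberg adjustment over 9097 genes. With 1 array for each code and size class, an interaction could not be fitted.

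All 66 members matched the RefSeq gene table by gene identifier, with 0 symbols changed. Named genes were the called members, the 3 tested members with the largest difference in each comparison and direction, the 2 brightest of each family, and called genes of the other lists. Members and lists were chosen with earlier results of these data known. The number of arrays limits the precision. Alternatives covered normalization, pseudocount, filter, probe sets, variance model, array weights, covariates and arrays left out. Leaving out probe sets ending in _s_at or _x_at was chosen after seeing the data.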

Additional observations from a re-analysis of the deposited data

How the results depend on the processing

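All 23 called differences (7, 3 and 13 in L6-R against L3-S, L3-S against L3-B and L6-R against L3-B) kept their sign in every alternative run. Runs that changed only the filter, the variance model or the size class term leave the estimate unchanged by design. Leaving out an array of the code outside a comparison does so too, and the sign could not change in such runs. With each array left out, 15 stayed called. The count of 7 was 3 with no filter, 4 in the upper 25% of genes, 2 when all probe sets of each gene were averaged, and 15 with the Actb ratio as covariate. The count of 3 was 1 in the upper 25%, 1 when averaged so and 6 with the Actb covariate, and the count of 13 was 7 in the upper 25%, where only 13 members were tested. With no filter, 18193 genes were tested, and the variance information shared between genes was fitted anew with the dim genes. The cause of the shifts in these counts was not tested. Leaving out arrays gave 5 to 10, 3 to 4 and 7 to 15. Size class gave 0 members throughout. Quantile normalization gave 7, 3 and 13, and omitting _s_at and _x_at probe sets 8, 3 and 14. Pseudocount 1 left 5, 2 and 11. The shares of all genes called in these runs, also those with an array left out, are not given here. These counts therefore cannot be set against the background. Signals near 32 cannot be resolved.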
